A study of Rattus norvegicus with 4 samples.

Results

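The genes described here encode splicing and RNA processing factors of 8 families: the heterogeneous nuclear ribonucleoproteins (symbols that start with Hnrnp), the serine/arginine-rich proteins (Srsf), subunits of splicing factor 3 (Sf3), proteins of the small nuclear ribonucleoproteins (Snrp), the DEAD-box (Ddx) and DEAH-box (Dhx) RNA helicases, the pre-mRNA processing factors (Prpf) and the THO complex (Thoc). They were chosen by these 8 prefixes in the array's annotation, among probe sets with a single gene symbol. This gave 118 of the 12783 named probe sets, for 89 of 10411 genes, and each gene was represented by its probe set of highest mean signal, with any others beside it. A further 9 probe sets carry several symbols, among them those for Hnrnpk, Srsf3, Snrpc and Snrpg, and were left out. Helicases were taken by name alone, so the Ddx and Dhx families hold ribosome biogenesis, translation and mRNA decay factors beside splicing factors.

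The RNA came from ventricular myocytes of neonatal rats, heart muscle cells kept in primary culture, in a study whose title concerns hypertrophy. The control group was plated in uncoated dishes. The fibronectin group was plated in dishes coated with fibronectin, a matrix glycoprotein bound by integrins. Both groups had 24 h with 10% serum and 48 h without serum, and no genotype, strain or age is given. Each group had 2 arrays. The labels do not say whether replicates were separate cultures, so p-values reflect no more than the differences among these samples, and those may be technical.

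Before the messenger RNA leaves the nucleus, the spliceosome removes introns. Small nuclear ribonucleoproteins recognise the splice sites and the branch point, helicases drive the rearrangements, and the THO complex couples the finished transcript to export. SR proteins mostly favour inclusion of an exon, while heterogeneous nuclear ribonucleoproteins often oppose it. In the heart, such regulators govern the isoforms of sarcomere and calcium-handling proteins that differ between the newborn and the adult. The array measured the factors' own transcripts, not splicing.

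Across tested probe sets, a correlation over genes and not over replicates, the 2 controls had r = 0.910 and the 2 fibronectin arrays r = 0.792. Fibronectin replicate 2 stood apart, at 0.775 and 0.794 with the controls, whereas fibronectin replicate 1 reached 0.904 and 0.847. Of the 10 listed ventricular myocyte markers, 9 were on the array under their symbol, and all 9 passed the filter on dim signals, with a summed log2 signal from 15.96 to 16.10. All 8 fibroblast markers were tested and had lower means on fibronectin. Their summed log2 signal was 14.98 and 15.57 on the controls and 14.17 and 14.89 on fibronectin. For leukocyte markers, 5 of 8 tested, the sums were 10.43 and 10.77 against 9.86 and 10.33. Smooth muscle markers summed to 11.80 and 13.10 against 11.98 and 12.72. Neural and Schwann markers, 4 of 6 on the array and 2 tested, summed to 8.85 and 8.32 against 9.33 and 9.65. Most of that sum came from Cnp, at 8.14 and 7.53 against 8.77 and 8.92. Prph, at 5.97 and 4.69 against 6.33 and 7.63, passed the filter only through its fibronectin arrays. The dim S100b and Mbp differed by -0.38 and 0.0079. Of the endothelial markers, Vwf lay at the floor on all arrays but fibronectin replicate 1. The arrays also differed in the ratio of 3' to 5' signal, a measure of how much of a transcript's length was copied. For beta-actin this ratio was 1.46 and 1.40 on the controls and 13.0 and 6.29 on fibronectin. For Gapdh it was 1.64 and 1.15 against 6.02 and 3.52. For hexokinase it was 3.77 and 4.12 against 3.11 and 7.0, with fibronectin replicate 1 below both controls. Its 5' signals on fibronectin were only 8.27 and 7.79 as deposited, below the floor intensity of 23.4, so those ratios are not reliable. The part of these differences in the values that follow was not tested. In bulk RNA, fewer cells of a type and less RNA per cell cannot be told apart.

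Over all 8 families, signals on fibronectin and on uncoated dishes were balanced. Log2 signals below are quantile normalized, with a floor of 4.55 under which values have no order, and a difference is the fibronectin mean minus the control mean. Of the 89 genes, 80 passed the filter on dim signals and were tested. Their median difference was 0.0020, beside 0.019 over all 7101 tested genes, and 40 of the 80, or 50%, lay above 0, beside 51.4% of all genes. Both fibronectin arrays exceeded both controls for 16 genes, or 20%, beside 20.6% of all tested genes. Both lay below the controls for 18 genes, or 22.5%, beside 17.2%. With the dim genes included, 17 of 89 were higher without overlap (all genes 18%) and 19 were lower (15.1%). With all arrays kept, the shares were thus close to the background in the higher direction and somewhat above it in the lower one. That lower excess depended on the arrays kept. With fibronectin replicate 2 left out it was gone, with 26 of the 80 lower without overlap beside 32.5% of all genes. It was smaller without fibronectin replicate 1 (33 beside 39.3%) and without control replicate 2 (27 beside 30.8%). It remained without control replicate 1 (28 beside 27.5%). In each of these settings a single array suffices in the reduced group.

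Among these families no gene reached an adjusted p under 0.05 in limma with Benjamini-Hochberg adjustment over the whole array, and the lowest adjusted p was 0.575, for Thoc3. Of all 9519 tested probe sets 0 passed, or 0% of the 7101 genes, and 616 had an unadjusted limma p under 0.05. At that unadjusted level 3 of the 80 genes (Thoc3, Snrpa1 and Snrpa), or 3.75%, were higher on fibronectin, beside 3.03% of all genes. Lower were 4, or 5%, beside 2.65%. A difference of at least 1 without overlap corresponds to a 2-fold change or more. It was found for 5 genes, or 6.25%, in the higher direction (3.55% of all genes) and 4, or 5%, in the lower (4.03%). Of the 5 higher genes, Thoc3, Snrpa and Ddx25 were dim on the controls, with means of 4.56, 5.33 and 5.25. They passed the filter, which uses the mean over all 4 arrays, only through their fibronectin arrays. Their place in this count is therefore partly set by the filter. The same holds for Thoc3 and Snrpa among the 3 genes above, and for Thoc3 as lowest adjusted p. With 2 arrays against 2, an exact permutation test of a single value cannot give a two-sided p below 0.33. The differences that follow are therefore descriptions of these 4 arrays.

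By family, the values were not spread evenly. Most Hnrnp and Srsf genes had lower means on fibronectin, with median differences of -0.43 and -0.52. The Sf3, Prpf and Thoc medians were 0.020, -0.00083 and 0.022. The Snrp and Ddx medians were 0.18 and 0.22, and the Dhx median was -0.11. No test between families was made, and the families were not chosen apart from these data. Over the alternative settings tried, the medians of Hnrnp (-0.50 to -0.17), Srsf (-0.52 to -0.28) and Dhx (-0.29 to -0.037) stayed below 0. Those of Ddx (0.053 to 0.40), Snrp (0.014 to 0.53) and Thoc (0.011 to 0.37) stayed above it, whereas those of Prpf (-0.29 to 0.37) and Sf3 (-0.043 to 0.14) changed sign.

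**Figure D1:**
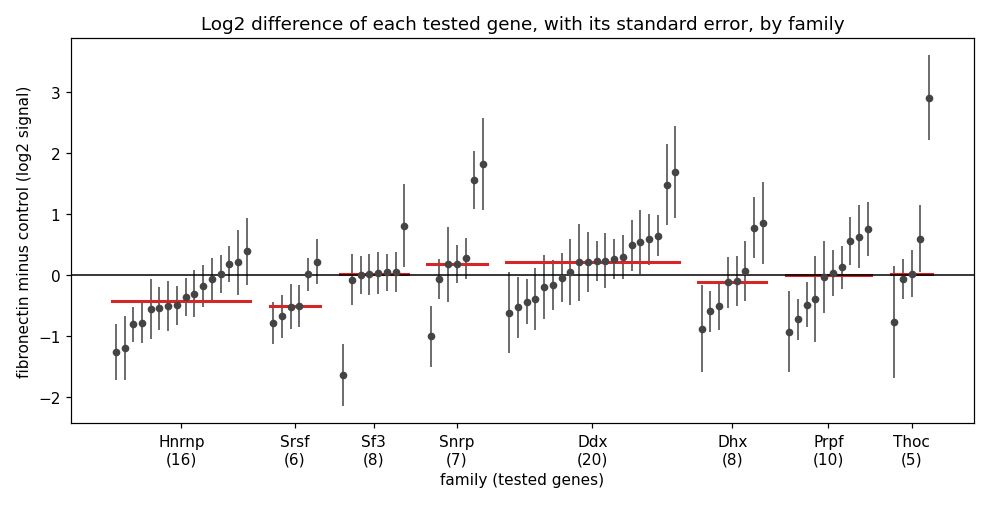
Log2 difference (fibronectin minus control) of each of the 80 tested genes, ordered within its family; bars are limma's standard errors and red lines are family medians, with the number of tested genes in parentheses. Of the 16 Hnrnp genes, 12 lie below 0, and of the 20 Ddx genes, 13 lie above it.

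The families also differed in how far the arrays of a group lay apart. With each gene set to its control mean, the 2 controls had Hnrnp medians of -0.022 and 0.022, while fibronectin replicates 1 and 2 had -0.45 and -0.17. The Srsf median was -0.016 and 0.016 on the controls and -0.39 and -0.45 on fibronectin. In both families, and in Dhx below, the medians of the fibronectin arrays lay below those of both controls. The Snrp median was -0.18 and 0.18 on the controls and 0.53 and 0.014 on fibronectin, so fibronectin replicate 2 lay between the controls. For Ddx it was -0.17 and 0.17 against 0.20 and 0.24, with the second control close to the fibronectin arrays. For Prpf it was -0.12 and 0.12 against -0.072 and 0.37, and for Dhx -0.035 and 0.035 against -0.053 and -0.29, so that in these families the fibronectin arrays lay further from each other than the controls did. For Thoc, with 5 tested genes, the median was -0.0037 and 0.0037 on the controls and 0.17 and 0.16 on fibronectin, above both controls. For Sf3 it was 0.066 and -0.066 against 0.033 and -0.043, so the fibronectin arrays lay between the controls. Over all tested genes the medians were 0.014 and -0.014 on the controls and 0.059 and 0.029 on fibronectin.

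**Figure D2:**
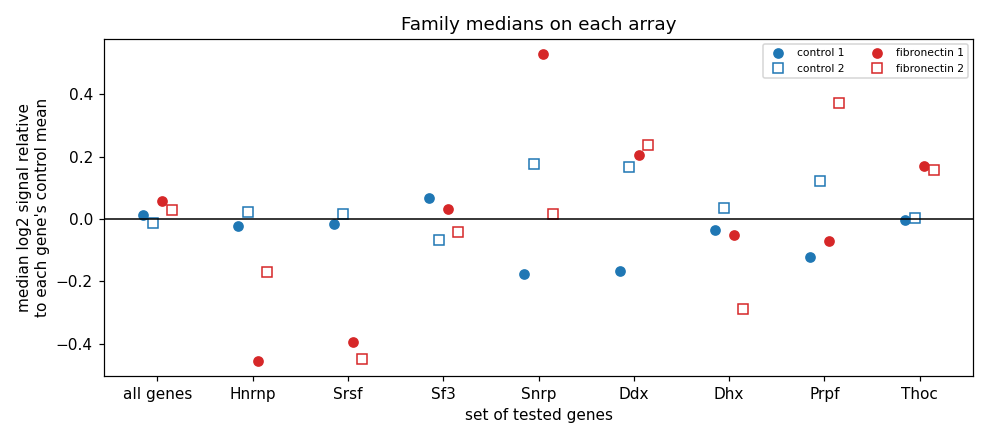
Median over the tested genes of each family of the log2 signal relative to that gene's control mean, on each of the 4 arrays; the first column holds all 7101 tested genes. The Hnrnp and Srsf medians on fibronectin, -0.45 to -0.17, lie below both controls, as do those of Dhx, at -0.053 and -0.29. The Snrp medians of the fibronectin arrays lie far apart, at 0.53 and 0.014.

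The promoters of the 2 tested genes in each direction with the smallest limma p are printed to show their start regions. That choice rests on these same values and does not mean that the groups were the most widely separated. In RefSeq, 84 of the 89 genes had a promoter of 300 bases, 250 before and 50 after the start. Capitals mark 4 motifs searched on both strands. The ETS motif was CCGGAAG. As GC box the letters GGGCGG were searched. The third was the CCAAT box, by the letters of its name. For the TATA box the search used TATAAA. The sequences are 5' to 3' on the gene's strand, in GRCr8, and none lies in the array files, which carry no coordinates.
Sf3b1 (chr9:64026670-64026969, minus strand): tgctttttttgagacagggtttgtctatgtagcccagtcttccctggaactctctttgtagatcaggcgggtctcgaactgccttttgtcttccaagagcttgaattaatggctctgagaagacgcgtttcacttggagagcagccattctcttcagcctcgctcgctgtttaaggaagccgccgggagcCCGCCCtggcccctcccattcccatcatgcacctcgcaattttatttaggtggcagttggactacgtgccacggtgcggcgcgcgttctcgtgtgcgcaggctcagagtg
Hnrnpa0 (chr17:6512879-6513178, plus strand): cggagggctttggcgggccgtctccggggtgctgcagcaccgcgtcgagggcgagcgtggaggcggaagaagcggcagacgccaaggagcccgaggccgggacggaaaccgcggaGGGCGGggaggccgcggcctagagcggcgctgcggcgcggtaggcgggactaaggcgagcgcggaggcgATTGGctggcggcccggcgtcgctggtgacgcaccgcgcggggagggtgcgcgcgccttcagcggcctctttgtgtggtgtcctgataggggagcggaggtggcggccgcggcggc
Thoc3 (chr17:10148031-10148330, plus strand): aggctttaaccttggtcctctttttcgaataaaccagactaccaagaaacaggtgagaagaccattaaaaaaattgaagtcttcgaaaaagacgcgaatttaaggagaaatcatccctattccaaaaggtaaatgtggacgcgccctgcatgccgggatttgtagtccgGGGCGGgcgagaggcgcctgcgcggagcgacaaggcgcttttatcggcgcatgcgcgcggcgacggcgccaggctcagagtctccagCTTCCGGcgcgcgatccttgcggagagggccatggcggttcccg
Snrpa1 (chr1:129051800-129052099, plus strand): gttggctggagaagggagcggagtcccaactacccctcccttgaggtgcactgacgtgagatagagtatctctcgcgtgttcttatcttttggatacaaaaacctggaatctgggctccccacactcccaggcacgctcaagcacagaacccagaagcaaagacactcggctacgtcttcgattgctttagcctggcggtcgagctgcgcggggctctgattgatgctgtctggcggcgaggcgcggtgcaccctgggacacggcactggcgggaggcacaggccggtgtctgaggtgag
The Thoc3 promoter holds a GC box and an ETS match, that of Hnrnpa0 a GC and a CCAAT box, that of Sf3b1 a GC box, and that of Snrpa1 none of the 4. Over the families, the ETS motif occurred in 30 of 84 promoters, or 35.7%, beside 18.8% of 5965 genes with a tested probe set and 11.2% of 18999 protein-coding genes. The CCAAT box occurred in 47, or 56%, beside 38.2% and 38.4%. The CCAAT box was in 14 of 16 Hnrnp promoters but 1 of 7 Sf3 promoters. The GC box occurred in 57.1%, beside 65.1% and 43.1%, and the TATA box was in 4 of 84, or 4.76%, beside 7.11% and 13.1%. The 18 genes lower and the 15 higher without overlap that had promoters held the ETS motif in 6 and 4 cases and the CCAAT box in 10 and 10. A match is a stretch of letters, and no binding was measured.

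The heterogeneous nuclear ribonucleoproteins bind nascent transcripts and act in splicing, export and stability. All 16 Hnrnp genes were tested: 12 had lower means on fibronectin and 4, or 25%, had higher ones, beside 51.4% of all tested genes. Without overlap 7 were lower, or 43.8% beside 17.2% of all tested genes, and 2 were higher, or 12.5% beside 20.6%. The arrays with the lower values also had the lower fibroblast sums, 14.17 and 14.89, and the higher beta-actin ratios, 13.0 and 6.29, whose part in this was not tested. The widest differences belonged to the pair that binds runs of guanines. Hnrnph1 measured 9.17 and 10.04 on the controls and 8.85 and 7.83 on fibronectin, a difference of -1.26 (SE 0.46) or 2.40-fold lower. Hnrnpf measured 8.24 and 9.42 on the controls and 7.13 and 8.14 on fibronectin, -1.20 (SE 0.52) or 2.30-fold lower. For Hnrnpf the higher fibronectin array lay only just below the lower control. Without fibronectin replicate 2 the Hnrnph1 difference was -0.76, and without control replicate 2 the Hnrnpf difference was -0.61. The third member of that subfamily, Hnrnph3, lay in the other direction, at 6.36 and 6.26 on the controls and 6.64 and 6.75 on fibronectin, a difference of 0.39 (SE 0.55).

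In the A/B subfamily, Hnrnpa0, which binds AU-rich messages, measured 10.30 and 10.14 on the controls and 9.32 and 9.48 on fibronectin. The gap between the groups was wider than the spread within either, with a difference of -0.82 (SE 0.28), 1.76-fold lower, and it ran from -0.89 to -0.74 when any 1 array was left out. Hnrnpab measured 9.97 and 10.67 on the controls and 9.64 and 9.43 on fibronectin, a difference of -0.78 (SE 0.33). Hnrnpa1, which silences exons, measured 9.34 and 9.33 against 9.48 and 9.56 in its brightest probe set, 0.18 (SE 0.29) higher. Its next probe set measured 9.27 and 9.71 against 8.99 and 8.59, a difference of -0.70 (SE 0.34), and the third differed by -0.13 (SE 0.47), so the direction for Hnrnpa1 is not settled. Hnrnpa2b1 was lower without overlap by 0.36 on the log2 scale, at 9.69 and 9.79 against 9.16 and 9.60. All 4 Hnrnpa3 probe sets had lower means on fibronectin, by -0.70 to -0.14, with overlap in the brightest. Hnrnpa1 and Hnrnpa3 have many processed copies in mammalian genomes, and probes on such genes can also read near-identical copies.

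Among the other Hnrnp genes, those without overlap were Hnrnpl and Hnrnpu. Hnrnpl, which binds CA repeats, measured 11.27 and 10.54 on the controls and 10.33 and 10.49 on fibronectin, a difference of -0.50 (SE 0.32). The controls lay further apart than the groups at their nearest point, and without control replicate 1 the difference was -0.13. Hnrnpu, a nuclear scaffold protein, measured 9.80 and 9.69 on the controls and 9.59 and 8.80 on fibronectin, -0.55 (SE 0.35), and its other probe sets differed by -0.65 and -0.23. Hnrnpd, which promotes decay of AU-rich messages, and Hnrnpul1 differed by -0.56 and -0.52 with overlap. Hnrnpc, Hnrnpr, Hnrnpdl and Hnrnpm lay between -0.19 and 0.21 in their brightest probe sets. The dimmer Hnrnpdl probe set measured 7.69 and 7.42 on the controls and 7.92 and 5.50 on fibronectin, -0.84 (SE 0.76), with overlap.

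**Figure D3:**
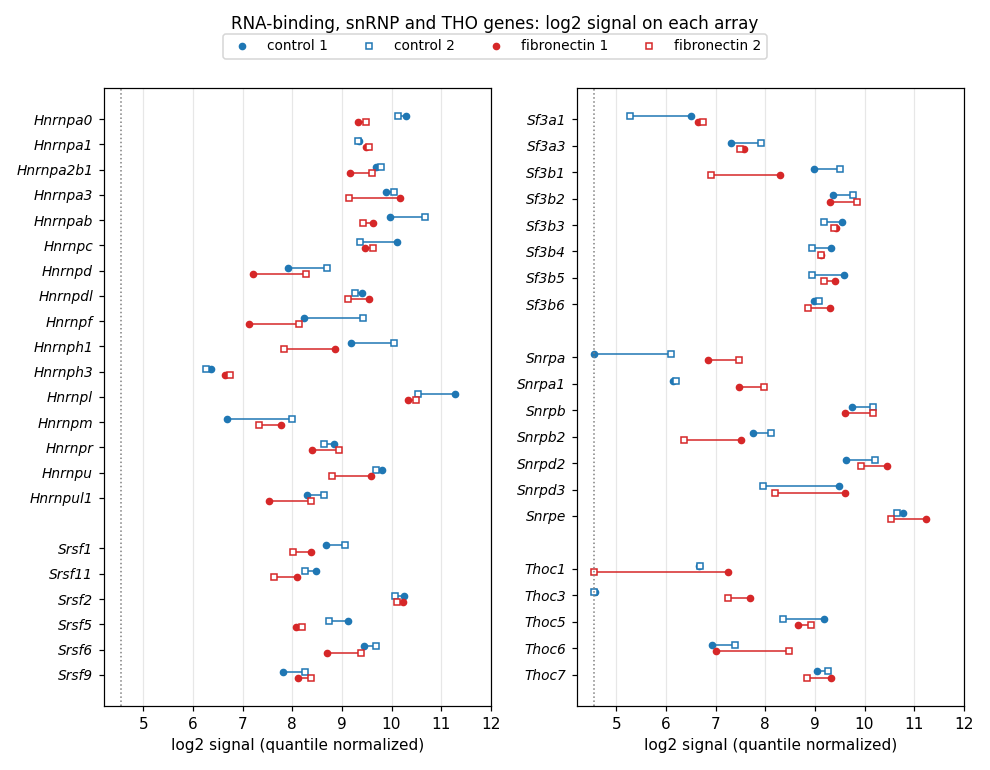
Log2 signal on each array for the tested Hnrnp and Srsf genes (left) and the Sf3, Snrp and Thoc genes (right); each gene has its 2 controls in blue and its 2 fibronectin arrays in red, joined by a line, and the dotted line is the floor of 4.55. Hnrnpa0, Srsf5 and Snrpa1 show groups well apart, whereas for Thoc1 fibronectin replicate 2 alone is at the floor.

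The SR proteins recruit the spliceosome to exons through domains rich in arginine and serine. Of 7 Srsf genes 6 were tested, and 4 of them were lower on fibronectin without overlap, or 66.7% beside 17.2% of all tested genes. Higher without overlap were 0, beside 20.6%. The fibroblast sums and 3' to 5' ratios given for the Hnrnp genes moved with the same arrays, and their part was not tested here either. Srsf5 measured 9.12 and 8.74 on the controls and 8.08 and 8.20 on fibronectin, a difference of -0.79 (SE 0.34) or 1.73-fold lower, and -0.98 to -0.60 with any 1 array left out. Srsf1, which in the heart directs splicing of the calcium/calmodulin kinase transcript, measured 8.67 and 9.07 against 8.37 and 8.01, -0.68 (SE 0.35). Its dimmer probe set went the other way without overlap, at 6.78 and 6.18 on the controls and 7.23 and 6.84 on fibronectin, a difference of 0.56 (SE 0.53). Srsf11 differed by -0.52 (SE 0.37), from 8.49 and 8.26 to 8.09 and 7.63. Srsf6 differed by -0.52 (SE 0.35), from 9.44 and 9.69 to 8.71 and 9.39, with 0.32 (SE 0.45) in its dimmer probe set. Of these 4 genes, only Srsf1 and Srsf6 have another tested probe set, and for both it has the opposite sign.

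The remaining tested Srsf genes overlapped between the groups in their brightest probe set. Srsf2, which also acts in transcription elongation, measured 10.24 and 10.06 on the controls and 10.22 and 10.10 on fibronectin, a difference of 0.0076 (SE 0.28). Its dimmer probe set measured 8.11 and 8.00 against 7.49 and 6.75, -0.94 (SE 0.43). Srsf9 differed by 0.22 (SE 0.37), at 7.81 and 8.26 against 8.12 and 8.38. Srsf10, a splicing repressor when dephosphorylated, was left out as dim. Its brightest probe set measured 4.86 and 5.11 on the controls and 5.87 and 6.35 on fibronectin, a difference of 1.13, while the next differed by -1.35, from 6.58 and 5.51 to 4.83 and 4.55.

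The splicing factor 3 subunits belong to the U2 small nuclear ribonucleoprotein, which binds the branch point. All 8 Sf3 genes were tested, and 6 of them lay between -0.077 and 0.046. Those were Sf3a3, Sf3b2, Sf3b3, Sf3b4, Sf3b5 and Sf3b6, and all overlapped between the groups. Sf3b3, for example, measured 9.54 and 9.19 on the controls and 9.43 and 9.38 on fibronectin. Sf3b2 measured 9.36 and 9.78 against 9.31 and 9.84. Sf3b6, the small subunit that contacts the branch-point adenosine, measured 8.99 and 9.08 against 9.29 and 8.86. Sf3a3 measured 7.31 and 7.91 against 7.58 and 7.48.

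Sf3b1, the large subunit that clamps the branch-point helix, stood outside that range. It measured 8.99 and 9.50 on the controls and 8.29 and 6.90 on fibronectin, a difference of -1.65 (SE 0.50) or 3.13-fold lower. The fibronectin arrays differed from each other by more than fibronectin replicate 1 differed from the nearer control, and the difference was -0.95 without fibronectin replicate 2. Without fibronectin replicate 1 it was -2.34, with limma's Benjamini-Hochberg adjusted p = 0.0346, in a fit that assumes the lone array varies like the controls. That was the only setting leaving out an array in which a gene of these families passed. Its second probe set measured 8.42 and 8.92 on the controls and 8.63 and 7.70 on fibronectin, -0.50 (SE 0.43), with overlap. Sf3a1, of the SF3a part of the U2 particle, lay higher, at 6.50 and 5.28 on the controls and 6.65 and 6.75 on fibronectin, 0.81 (SE 0.68). Without control replicate 2 that difference was 0.20. This Sf3a1 probe set, with a control mean of 5.89, passed the filter only through its fibronectin arrays. The second Sf3a1 probe set, left out as dim, was also higher without overlap, from 5.50 and 4.55 to 6.88 and 6.96.

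The Snrp genes encode the Sm ring shared by spliceosomal particles and proteins specific to U1 or U2. Of 8 genes, 7 were tested, and 2 were higher without overlap, or 28.6% beside 20.6% of all tested genes, while 1 was lower, or 14.3% beside 17.2%. Both higher genes code for particle-specific proteins. Snrpa1, the U2 protein A' whose printed promoter held none of the motifs, measured 6.13 and 6.19 on the controls and 7.48 and 7.97 on fibronectin. The controls nearly coincided and both fibronectin arrays lay clear of them, with a difference of 1.56 (SE 0.48), 2.95-fold higher, and 1.32 to 1.81 with any 1 array left out. Snrpa, the U1 protein A that binds a stem-loop of U1 RNA, measured 4.55 and 6.11 on the controls and 6.85 and 7.46 on fibronectin. The first control was at the floor, so the difference of 1.83 (SE 0.75) does not measure its full size, and without that array it was 1.05. Snrpa, with a control mean of 5.33, passed the filter only through its fibronectin arrays. Snrpb2, the partner of Snrpa1 in the U2 particle, went the opposite way, from 7.76 and 8.11 to 7.50 and 6.35, a difference of -1.01 (SE 0.50) or 2.01-fold lower. Without fibronectin replicate 2 it was -0.43.

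The Sm core genes overlapped between the groups. Snrpe measured 10.77 and 10.65 on the controls and 11.24 and 10.54 on fibronectin, a difference of 0.18 (SE 0.31). Snrpb measured 9.75 and 10.17 against 9.60 and 10.17, a difference of -0.072 (SE 0.33), which was 0.056 on the deposited scale. Snrpd2 and Snrpd3 differed by 0.27 and 0.17. Snrpd3 was split by replicate number and not by coating, at 9.49 and 9.61 on the arrays numbered 1 and 7.96 and 8.19 on those numbered 2. Snrpn, the imprinted Sm protein of heart and brain, was left out as dim in its single-symbol probe set. It measured 7.14 and 5.93 on the controls, and both fibronectin arrays sat at the floor, which makes it at least 3.96-fold lower there, or at least 2.60-fold without control replicate 1. Both brighter probe sets that carry the symbols Snurf and Snrpn differ from this. One measured 9.50 and 8.56 on the controls and 9.86 and 5.45 on fibronectin, with fibronectin replicate 1 above both controls. The other measured 7.86 and 7.98 against 6.99 and 4.55, without overlap but far from the floor on fibronectin replicate 1.

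DEAD-box helicases open short RNA duplexes. Of 25 Ddx genes, 20 were tested, and 6 were higher without overlap, or 30% beside 20.6% of all tested genes, while 0 were lower without overlap beside 17.2%. Without fibronectin replicate 1, where a single array suffices, 5 of the 20 were lower, beside 39.3% of all tested genes. Among helicases with roles in the spliceosome, Ddx23 and Ddx46 were 2 of the 6. Ddx23, of the U5 particle, measured 8.37 and 8.58 on the controls and 8.77 and 8.71 on fibronectin, a difference of 0.26 (SE 0.33). Ddx46, which helps U2 bind, measured 6.75 and 7.18 against 7.19 and 7.21, 0.23 (SE 0.45). Ddx39b, which acts in U2 recruitment and export, differed by -0.048 (SE 0.40), its paralog Ddx39a by 0.58 (SE 0.41), Ddx42 by 0.29 and Ddx41 by 0.049. Ddx5, a coregulator of splicing and transcription, measured 11.31 and 10.32 on the controls and 10.97 and 9.61 on fibronectin, -0.53 (SE 0.50), with overlap. Ddx3x, of translation initiation, measured 10.15 and 10.47 against 10.35 and 9.39, -0.44 (SE 0.37). Without fibronectin replicate 2 the differences were 0.15 for Ddx5 and 0.037 for Ddx3x. That of Ddx5 was also close to 0, at -0.035, without control replicate 1.

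The widest Ddx differences came from helicases outside the spliceosome. Ddx25, best known from male germ cells, measured 5.39 and 5.11 on the controls and 6.22 and 7.67 on fibronectin, a difference of 1.69 (SE 0.76) or 3.23-fold higher, and 0.97 without fibronectin replicate 2. Ddx25, with a control mean of 5.25, passed the filter only through its fibronectin arrays. The nucleolar helicase Ddx56 measured 7.02 and 5.30 on the controls and 7.32 and 7.97 on fibronectin, 1.49 (SE 0.66). Control replicate 2 was the low array, and without it the difference was 0.63. Ddx54, also nucleolar, measured 6.73 and 7.69 against 7.26 and 8.23 in its brightest probe set, 0.54 (SE 0.52), with overlap. Its dimmer probe set measured 5.01 and 5.78 against 6.65 and 7.50, 1.68 (SE 0.69), without overlap. That dimmer Ddx54 probe set, with a control mean of 5.40, passed the filter only through its fibronectin arrays. Ddx1, of the transfer RNA ligase complex, measured 8.38 and 8.87 against 9.37 and 9.17, 0.64 (SE 0.34), and Ddx24 differed by 0.23. The other nucleolar helicases Ddx10, Ddx21, Ddx47, Ddx50 and Ddx51 ran from -0.62 to 0.48 with overlap. Ddx6, of mRNA decay, differed by -0.17 and Ddx20, of the SMN complex that loads Sm rings, by 0.21. The genes left out as dim were Ddx19b, Ddx28, Ddx31, Ddx49 and Ddx52.

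**Figure D4:**
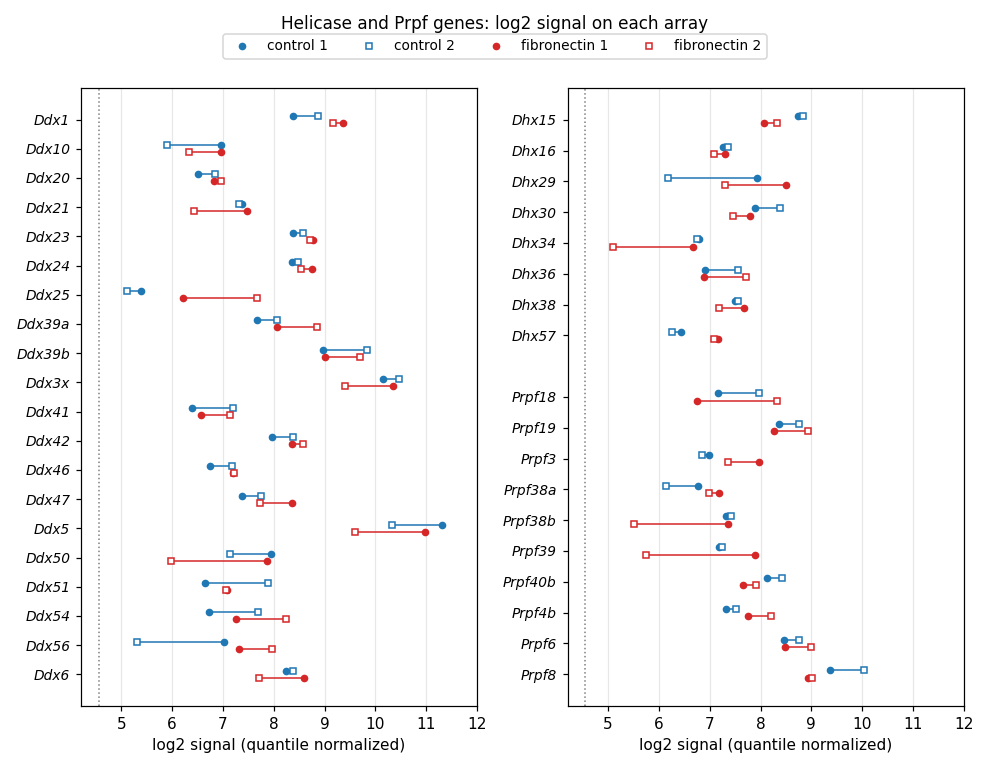
Log2 signal on each array for the tested Ddx genes (left) and Dhx and Prpf genes (right), with controls in blue, fibronectin arrays in red and the floor of 4.55 dotted. Dhx15, Dhx57 and Prpf8 show groups apart; Prpf38b and Prpf39 were low on fibronectin replicate 2 alone.

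The DEAH-box helicases include those that release the finished message and the lariat. Of 9 Dhx genes, 8 were tested, with 3 lower without overlap, or 37.5% beside 17.2% of all tested genes, and 1 higher, or 12.5% beside 20.6%. Dhx15, which disassembles the spent spliceosome, measured 8.75 and 8.84 on the controls and 8.06 and 8.32 on fibronectin, a difference of -0.60 (SE 0.33) that ran from -0.73 to -0.47 with any 1 array left out. Dhx30, of mitochondrial ribosome assembly, measured 7.89 and 8.38 against 7.79 and 7.46, -0.51 (SE 0.39). Dhx34, of nonsense-mediated decay, measured 6.79 and 6.75 against 6.68 and 5.10, so most of its -0.88 (SE 0.72) came from fibronectin replicate 2. Dhx57 was higher, from 6.43 and 6.26 to 7.17 and 7.08, 0.78 (SE 0.50). Dhx29, a scanning factor of translation, measured 7.93 and 6.17 against 8.50 and 7.31, 0.85 (SE 0.67), with overlap. The spliceosomal Dhx16 and Dhx38 differed by -0.12 and -0.10, and Dhx36, which unwinds quadruplexes, by 0.070. Dhx9 was left out as dim.

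The Prpf proteins are core parts of the spliceosome, many of them in the U4/U6.U5 particle. All 10 were tested, with 3 higher without overlap, or 30% beside 20.6% of all tested genes, and 2 lower, or 20% beside 17.2%. Prpf8, the scaffold of the catalytic centre, measured 9.37 and 10.04 on the controls and 8.93 and 9.02 on fibronectin, a difference of -0.73 (SE 0.34) or 1.66-fold lower, and -0.40 without control replicate 2. Prpf40b, which is linked to U1, differed by -0.49 (SE 0.37), from 8.12 and 8.42 to 7.66 and 7.91. In the higher direction, Prpf3, a U4/U6 protein, measured 6.98 and 6.85 on the controls and 7.97 and 7.36 on fibronectin, 0.75 (SE 0.44). The kinase Prpf4b, which acts in spliceosome activation, measured 7.32 and 7.52 against 7.75 and 8.20, 0.55 (SE 0.39). Prpf38a, needed for activation, differed by 0.63 (SE 0.52). Prpf38b measured 7.31 and 7.41 against 7.35 and 5.50, so its -0.94 (SE 0.67) was -0.013 without fibronectin replicate 2. Prpf39 showed the same split, at 7.89 on fibronectin replicate 1 and 5.75 on fibronectin replicate 2. Prpf6, the ubiquitin ligase Prpf19 and the second-step factor Prpf18 lay between -0.033 and 0.12.

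THO joins export factors to the nascent transcript. Of 6 Thoc genes 5 were tested, and Thoc3 was the 1 higher without overlap, or 20% beside 20.6% of all tested genes. Thoc3 measured 4.57 and 4.55 on the controls, at or beside the floor, and 7.69 and 7.26 on fibronectin, which leaves the true size of this difference unmeasured. Thoc3 passed the filter only through its fibronectin arrays. Its other 2 probe sets were at the floor on all 4 arrays. Among its partners, Thoc7 measured 9.04 and 9.27 on the controls and 9.32 and 8.84 on fibronectin, a difference of -0.069 (SE 0.33), and Thoc5 differed by 0.022 (SE 0.39). The dimmer Thoc7 probe set differed by -1.08 (SE 0.93), with fibronectin replicate 2 at the floor. Thoc1 measured 6.67 and 6.68 on the controls, 7.25 on fibronectin replicate 1 and the floor on fibronectin replicate 2, so its -0.78 (SE 0.92) was 0.57 without the last. Thoc6 measured 6.93 and 7.38 against 7.01 and 8.49, 0.60 (SE 0.56). Thoc2 was at the floor on every array.

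Several probe sets of a gene often disagreed. Of the 16 genes with more than 1 tested probe set, 7 had opposite signs in the brightest and the dimmest, or 43.8% beside 43.6% of 850 such genes in the whole table. The dimmest lay below the brightest in 8 of 16, beside 59.6% of all. The widest gaps were those of Srsf1 (1.23), Sf3b1 (1.14), Ddx54 (1.14), Thoc7 (1.01) and Srsf2 (0.95). The positions of the probe sets along the transcripts are not in the files, and which transcript each one reads was not tested.

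**Figure D5:**
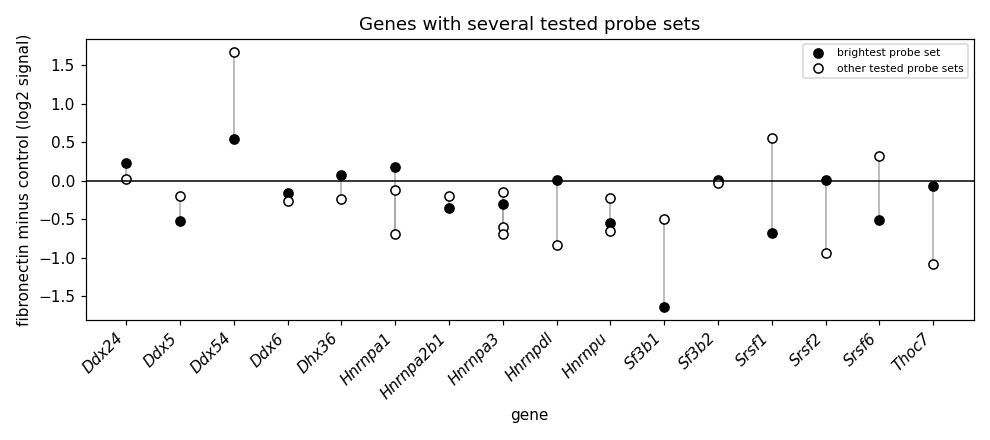
Log2 difference (fibronectin minus control) of every tested probe set of the 16 genes with more than 1; filled points are the brightest probe set and open points the others. Srsf1, Srsf2 and Thoc7 have a filled and an open point far apart, and all 4 points of Hnrnpa3 lie below 0.

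Outside these prefixes, 108 further symbols of splicing, end formation, exon junction and export factors were examined in the same fit. On the array were 82, of which 79 were tested, with 37 above and 42 below 0 and a median of -0.052. Without overlap, 13 were higher, or 16.5% beside 20.6% of all tested genes, and 14 lower, or 17.7% beside 17.2%, and 0 passed limma's Benjamini-Hochberg threshold. The smallest limma p in this list belonged to Lsm4, of the ring that binds U6 RNA, which measured 8.51 and 8.49 on the controls and 9.57 and 9.79 on fibronectin, a difference of 1.19 (SE 0.31). The spliceosomal cyclophilin Ppie and the decay and splicing factor Khsrp were also higher without overlap, by 1.32 and 0.83. In the lower direction Mbnl2, a muscleblind regulator of fetal and adult exons, measured 9.45 and 9.44 against 9.13 and 6.99, mostly through fibronectin replicate 2.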

How the data were processed

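RNA had been hybridised to 4 Affymetrix rat arrays. The deposited table holds a linear signal intensity for each probe set on each array. Its scaling by the authors is stated in none of the sources used here. Gene symbols came from GEO's platform annotation, and for all 89 genes described they equalled those of RefSeq (GRCr8). Of 15866 probe sets, 9 control sets aside, 12783 had 1 symbol, 312 had several and 2771 had none.

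Intensities were quantile normalized, floored at 23.4, which is their 20th percentile, and log2 transformed. The dimmest 40% by mean over the 4 arrays were left out. The other 9519 probe sets were fitted in limma 3.58.1 (R 4.3.3) by lmFit, and eBayes used an intensity trend. Two-sided p-values were adjusted over all of these probe sets by Benjamini-Hochberg, at a threshold of 0.05. A gene stands for its probe set of highest mean, and the SE of a difference is limma's moderated one.

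Named in each family were the gene of highest mean and up to 2 per direction with the smallest limma p. Genes with a probe set differing by at least 1 without overlap, and the 5 with the widest gap between probe sets, brought the number to 37. Other genes account for the rest of their family or were chosen after their values were seen. The members and lists were chosen with earlier results of these data known. Alternatives covered the scaling, the filter, an offset, all probe sets of a gene, the variance model, a threshold of 0.10, the replicate block and the omission of single arrays. Arrays give no read depth, and their number, 2 per group, limits the precision.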

Additional observations from a re-analysis of the deposited data

How the results depend on the processing

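The replicate number was shared by label alone: deviations of same-numbered arrays correlated at 0.27, over only 2 pairs, which does not show pairing. With the replicate block 234 probe sets passed limma's threshold in place of 0, among them Sf3b1 (Benjamini-Hochberg adjusted p = 0.00798) and Hnrnph1 (0.0323). With 1 array left out the number ran from 0 to 337, and 0 passed under each other setting, a threshold of 0.10 included. When 60% of probe sets were left out, 7 of 64 members were higher without overlap, beside 21.2% of all genes, and 17 were lower, beside 16.8%. Leaving out single arrays, 25 to 30 of 80 members were higher, beside 32.5% to 40.8% of all genes. Those lower numbered 26 to 33, beside 27.5% to 39.3%, fewer arrays being able to overlap. With 1 array left out, medians ran from -0.13 to 0.067 over all members, -0.45 to -0.17 for Hnrnp, -0.50 to -0.39 for Srsf, -0.043 to 0.095 for Sf3, 0.014 to 0.53 for Snrp, 0.053 to 0.40 for Ddx, -0.29 to -0.053 for Dhx, -0.29 to 0.37 for Prpf, and 0.045 to 0.37 for Thoc. On the deposited scale, where the median of all genes was 0.093, the medians were -0.27 for Hnrnp, -0.43 for Srsf, 0.14 for Sf3 and 0.081 for Thoc. With arrays shifted to 1 median they were -0.47 for Srsf and 0.033 for Thoc, with an offset -0.46 and 0.015, without a filter 0.011 for Thoc, and over all probe sets of a gene -0.28 for Srsf.

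Signs turned with 1 array left out for Ddx3x (-0.92 to 0.037), Ddx5 (-1.21 to 0.15), Dhx29 (-0.024 to 1.73), Sf3a3 (-0.38 to 0.22), Sf3b2 (-0.25 to 0.28), Sf3b6 (-0.17 to 0.26), Snrpb (-0.36 to 0.21), Snrpe (-0.17 to 0.53), Srsf2 (-0.083 to 0.099), Srsf9 (-0.012 to 0.44), Thoc1 (-2.13 to 0.57), Thoc6 (-0.14 to 1.33) and Thoc7 (-0.31 to 0.17). Over all probe sets of a gene Hnrnpa1 was -0.21, Sf3b2 -0.012 and Srsf2 -0.47. On the deposited scale Snrpb was 0.056 and Thoc7 0.028, and with arrays shifted to 1 median Snrpb was 0.0083. The cause was not tested. Signal near the floor limits Thoc3, Snrpa, Snrpn and Srsf10.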
